A study of Arabidopsis thaliana with 9 samples.

Results

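The 10 genes described here encode the enzymes of plant fermentation and the sucrose synthases that feed it, in Arabidopsis thaliana seedlings. They were selected by gene identifier, with earlier results of these data known, and make up 10 of the 29071 genes listed in the deposited tables. They are the pyruvate decarboxylase genes PDC1, PDC2, PDC3 and PDC4, the alcohol dehydrogenase gene ADH1, the lactate dehydrogenase gene LDH, the aldehyde dehydrogenase gene ALDH2B7, the alanine aminotransferase gene ALAAT1, and the sucrose synthase genes SUS1 and SUS4. All 10 were listed in both tables.

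Fermentation lets a plant cell keep glycolysis running when mitochondrial respiration cannot take up its NADH. Pyruvate decarboxylase turns pyruvate into acetaldehyde, alcohol dehydrogenase reduces acetaldehyde to ethanol, lactate dehydrogenase reduces pyruvate to lactate, and alanine aminotransferase moves an amino group from glutamate to pyruvate. Sucrose synthase cleaves sucrose with UDP, which spares ATP compared with invertase and hexokinase, and in Arabidopsis the transcripts of PDC1, ADH1, SUS1 and SUS4 are known to accumulate when oxygen is short.

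RNA was sequenced from whole 7-day-old wild-type Col-0 seedlings grown on Murashige and Skoog medium. There were 3 libraries from seedlings treated with ethidium bromide (EtBr), a DNA intercalator, 3 from seedlings treated with doxycycline, a tetracycline that blocks ribosomes of the bacterial type, and 3 from seedlings given water. The groups share genotype, age and medium, carry no transgene or mutation in the labels, and were studied for the mitochondrial unfolded protein response. Neither dose nor duration of treatment stands in the labels. Nothing states separate cultures for the 3 libraries of a group, so the p-values cover only the spread between libraries, which may be technical.

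Each library held 17724030 to 20330871 reads in genes. Values are the authors' normalized counts. EtBr libraries stand beside water in 1 table and doxycycline libraries beside water in another. The water libraries are the same 3 in both, so the comparisons with water are not independent of each other. Both organs expected of a seedling were present: the 10 leaf markers summed to 297425 to 467122 normalized counts in EtBr libraries, 504535 to 592546 in doxycycline libraries and 557543 to 592575 in water libraries. The 12 root markers summed to 1021 to 2741 in EtBr libraries, 880.2 to 1429 in doxycycline libraries and 739 to 1413 in water libraries, and the root hair expansin EXPA18 was at 0 in all 3 doxycycline libraries. EtBr replicate 3 stood apart from EtBr replicates 1 and 2, with the highest root sum and the lowest leaf sum of the 9 libraries. In EtBr against water 1 root marker rose and 3 fell (0 or 1 rose and 1 to 3 fell with a library left out), and 2 leaf markers rose and 6 fell. In doxycycline against water 1 root marker rose and 4 fell (0 rose and 1 to 3 fell with a library left out), and 2 leaf markers fell (1 with a library other than water replicate 3 left out). In EtBr against doxycycline the root markers gave 5 higher and 3 lower, with a median log2 difference of 1.01 (4 to 6 higher and 1 to 3 lower with a library left out), and the leaf markers 2 higher and 5 lower, with a median of -0.60. The part of these markers' changes in the results was not tested. In whole seedlings, a change in the number of cells of a type and a change in RNA per cell cannot be told apart.

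In EtBr seedlings, 9 of the 10 genes rose against water, 1 fell and 0 failed the test. In doxycycline seedlings, 6 rose against water, 0 fell and 4 did not pass. In EtBr against doxycycline, 7 were higher, 0 were lower and 3 did not pass. A gene was called at a Benjamini-Hochberg adjusted p under 0.05 from limma, fitted on log2(value + 1) to every gene of the table. Over all genes, EtBr against water called 55.4% of 28956 (34.2% higher and 21.2% lower), doxycycline against water called 11.7% of 24434 (6.47% higher and 5.27% lower), and EtBr against doxycycline called 57.3% of 24319 (32.4% higher and 24.8% lower). The median log2 change of the 10 genes was 3.12 in EtBr against water, where that of all genes was 0.39, 0.95 in doxycycline against water, where that of all genes was -0.01, and 1.25 in EtBr against doxycycline, where that of all genes was 0.14. The count of 0 lower genes in doxycycline against water was also 0 at an unadjusted limma p under 0.05, with edgeR, which tested 8 of the 10 and called 6.9% of all genes lower, and with DESeq2, which called 7.29% lower. The count of 0 lower genes in EtBr against doxycycline was 0 at an unadjusted limma p under 0.05 and with DESeq2, which called 25.7% of all genes lower, and was 1 with edgeR, which called 30.8% lower, the gene being ALDH2B7.

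**Figure D1:**
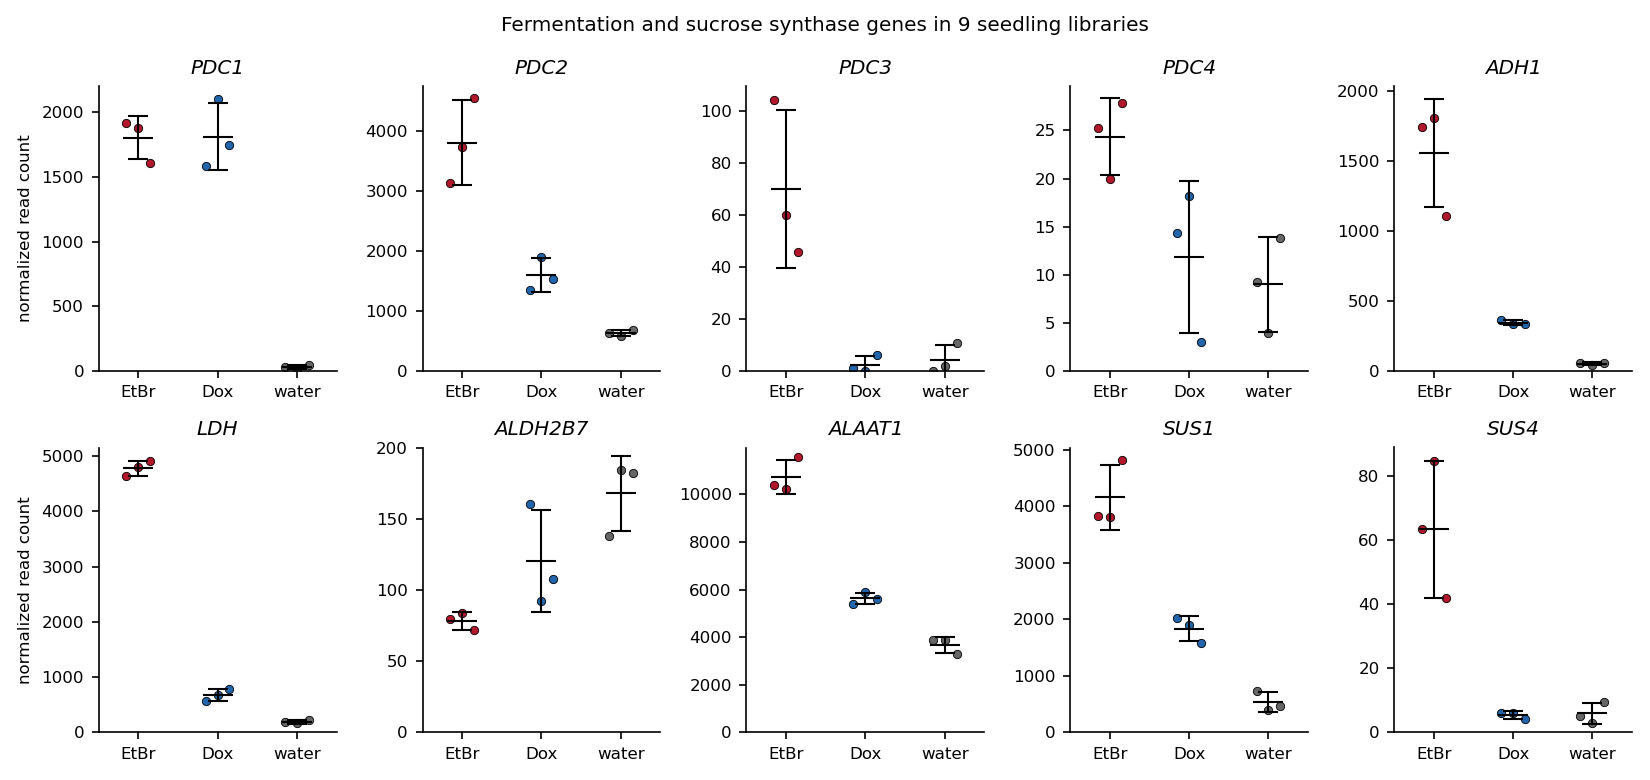
Normalized read counts of the 10 genes in the 9 libraries on a scale shared by all 9, with EtBr left, doxycycline (Dox) in the middle and water right; points are libraries, the long bar is the mean and the whiskers are 1 SD (n = 3). PDC1 stands at about the same height in EtBr and doxycycline libraries, ADH1, LDH, PDC2, ALAAT1 and SUS1 step down in the order EtBr, doxycycline, water, and PDC3 and SUS4 are high in EtBr libraries alone.

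Together the 10 genes took 0.146% to 0.148% of reads in EtBr libraries, 0.0567% to 0.0639% in doxycycline libraries and 0.0266% to 0.0278% in water libraries. The 3 groups did not overlap in this share.

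Of the pyruvate decarboxylase genes, PDC1 and PDC2 lie apart from each other on chromosomes 4 and 5. Coordinates are those of the deposited tables, which are the same as RefSeq's for TAIR10.1 for all 10 genes. PDC1 (AT4G33070) is at chr4:15952257-15954803 on the minus strand with 5 exons. PDC2 (AT5G54960) is at chr5:22310553-22312832 on the minus strand with 1 exon. Their coding sequences were identical at 76.4% of aligned bases, and the longest identical run was 20 bases. The 250 bases before the start of each are shown because these genes responded differently to the treatments, as described next, and those of ADH1 and SUS1 because they hold matches to the mitochondrial dysfunction motif, the element bound by membrane-tethered NAC factors of mitochondrial retrograde signalling. They are RefSeq sequences of TAIR10.1, 5′ to 3′ on the strand of the gene, at chr4:15954804-15955053 (minus) for PDC1, chr5:22312833-22313082 (minus) for PDC2, chr1:28975005-28975254 (plus) for ADH1 and chr5:7055399-7055648 (minus) for SUS1. Capitals mark matches, on either strand, to the G-box CACGTG, the GCC box GCCGCC, the anaerobic GT motif AAACCA, which reads as TGGTTT where it lies on the opposite strand, and the mitochondrial dysfunction motif in both of its forms, whose matches are spelled out after the sequences.
PDC1: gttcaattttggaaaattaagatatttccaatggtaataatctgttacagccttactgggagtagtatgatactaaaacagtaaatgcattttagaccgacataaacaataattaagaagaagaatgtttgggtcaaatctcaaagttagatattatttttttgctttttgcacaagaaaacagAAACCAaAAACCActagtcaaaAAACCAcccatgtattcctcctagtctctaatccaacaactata
PDC2: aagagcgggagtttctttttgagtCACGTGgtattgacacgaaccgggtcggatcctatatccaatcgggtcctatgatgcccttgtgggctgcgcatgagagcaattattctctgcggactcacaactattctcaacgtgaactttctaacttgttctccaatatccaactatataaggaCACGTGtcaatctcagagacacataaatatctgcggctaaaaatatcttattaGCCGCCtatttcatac
ADH1: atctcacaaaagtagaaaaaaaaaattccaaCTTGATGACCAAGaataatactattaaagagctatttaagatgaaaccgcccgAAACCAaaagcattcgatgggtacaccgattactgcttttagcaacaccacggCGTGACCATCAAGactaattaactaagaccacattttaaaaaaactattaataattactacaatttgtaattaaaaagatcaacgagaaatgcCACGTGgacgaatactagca
SUS1: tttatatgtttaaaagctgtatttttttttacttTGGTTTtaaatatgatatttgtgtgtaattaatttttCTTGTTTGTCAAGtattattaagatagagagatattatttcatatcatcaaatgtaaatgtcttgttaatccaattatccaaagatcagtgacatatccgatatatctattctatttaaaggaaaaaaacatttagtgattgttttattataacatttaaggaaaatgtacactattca
In PDC1 the 3 matches to the GT motif began 66, 59 and 44 bases before the start. PDC2 held a G-box 226 and another 69 bases before the start and a GCC box 16 bases before it, with no GT motif. ADH1 held both forms of the mitochondrial dysfunction motif, at 219 to 207 bases (CTTGATGACCAAG) and at 113 to 101 bases (CGTGACCATCAAG, on the opposite strand) before the start, a G-box 20 bases before it and a GT motif 166 bases before it. SUS1 held the motif at 179 to 167 bases (CTTGTTTGTCAAG). The capitalized matches do not overlap each other.

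Over windows from 250 bases before to 50 after the start, either form of the mitochondrial dysfunction motif stood in 1.42% of 27443 promoters and in 2 of the 10 genes, ADH1 and SUS1. The GT motif stood in 32.0% of promoters and in 6 of the 10, which were PDC1, ADH1, LDH, ALAAT1, SUS1 and SUS4. The G-box stood in 7.68% of promoters and in ADH1 and PDC2. The GCC box stood in 2.57% and, of the 10 genes, in PDC2. PDC3, PDC4 and ALDH2B7 held no match in this window. These are matches of letters and say nothing of whether a factor binds.

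**Figure D2:**
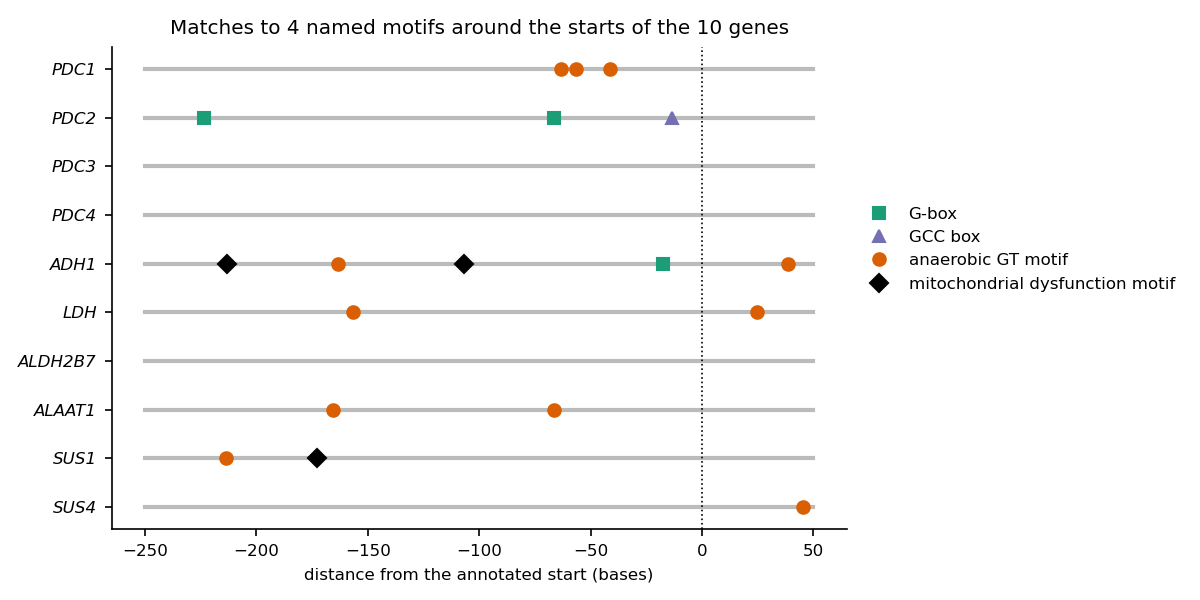
Positions of motif matches around the annotated starts of the 10 genes, with distance in bases on the horizontal axis and the start at 0; each grey line is a window of 250 bases before to 50 after the start. PDC1 carries 3 anaerobic GT motifs close to its start, and ADH1 and SUS1 carry the mitochondrial dysfunction motif.

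PDC1 rose under both agents, to levels that overlapped between them. It had 1942, 1905 and 1632 normalized counts in EtBr libraries, against 32.8, 12.2 and 46.9 in water libraries. In the other table it had 1536, 2023 and 1712 in doxycycline libraries, against 31.2, 11.5 and 45.1 in the same water libraries. Every treated library was above every water library, and the EtBr and doxycycline libraries overlapped. Its mean was 59.6-fold the water mean in EtBr seedlings (log2 change 6.04 ± 0.42 SE, limma adjusted p = 1.9e-05) and 60.0-fold in doxycycline seedlings (6.04 ± 0.39, limma adjusted p = 6.28e-06). On the scale shared by the 9 libraries PDC1 averaged 1805 ± 168 in EtBr, 1812 ± 262 in doxycycline and 29.8 ± 17.0 in water libraries (SD, n = 3 each). The log2 difference of EtBr from doxycycline was -0.00075 with a 95% interval of -0.31 to 0.31. PDC1 had the largest log2 change of the 10 genes in both comparisons with water.

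PDC2, the main PDC transcript of water seedlings, rose under both agents and more under EtBr. It had 3176, 3779 and 4615 normalized counts in EtBr libraries, against 649, 599 and 702 in water libraries, and 1305, 1839.6 and 1499 in doxycycline libraries, against 617, 564 and 676 in water libraries. No group overlapped another. The mean was 5.93-fold the water mean in EtBr seedlings (log2 change 2.55 ± 0.16 SE, limma adjusted p = 1.24e-05) and 2.50-fold in doxycycline seedlings (1.31 ± 0.14, limma adjusted p = 2.28e-04). EtBr seedlings had 2.39-fold the doxycycline mean (log2 difference 1.25 ± 0.18 SE, limma adjusted p = 0.00133).

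The share of each gene in the PDC reads shows the same data within a library. Per base of gene length, PDC1 gave 37.6%, 33.7% and 26.4% of PDC reads in EtBr libraries, 54.5%, 52.9% and 53.9% in doxycycline libraries and 4.88%, 2.04% and 6.21% in water libraries. The groups did not overlap, and the doxycycline libraries were the closest together, from 52.9% to 54.5%. PDC2 gave 65.7% ± 6.36 in EtBr, 45.8% ± 0.853 in doxycycline and 93.6% ± 3.28 in water libraries (SD, n = 3 each). PDC1 was the more abundant of the pair per length in every doxycycline library, at 1.13 to 1.21 times PDC2, and the less abundant in every EtBr library, at 0.364 to 0.63 times. With 3 libraries against 3, the smallest two-sided p of an exact permutation test is 0.10, so no test of these shares is given.

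**Figure D3:**
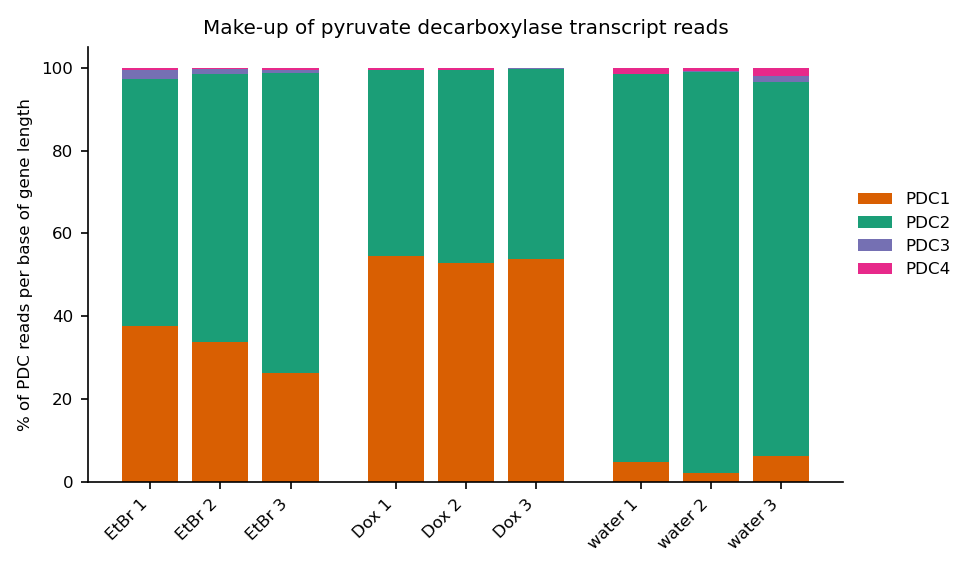
Share of each pyruvate decarboxylase gene in the PDC reads of the 9 libraries, in percent per base of gene length, with EtBr libraries left, doxycycline (Dox) in the middle and water right. PDC2 fills at least 90.3% of each water bar, PDC1 takes the larger part of each doxycycline bar, and PDC3 and PDC4 are thin slices throughout.

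PDC3 and PDC4 are neighbours on chromosome 5. PDC3 (AT5G01330, chr5:132264-134920, 5 exons) and PDC4 (AT5G01320, chr5:129263-131687, 5 exons) lie on the minus strand with 576 bases and no other annotated gene between them. Their coding sequences were identical at 93.2% of aligned bases with 1 identical run of 194 bases, and PDC1 was identical to PDC3 at 86.6% and to PDC4 at 87.1%, so reads may have been split or shared among them and their values are uncertain. PDC3 had 106, 60.7 and 46.3 normalized counts in EtBr libraries, against 0, 2.04 and 10.9 in water libraries. In doxycycline libraries it had 0.990, 0 and 5.98, against 0, 1.92 and 10.5 in water libraries. The EtBr libraries stood above all others, and the doxycycline and water libraries overlapped.

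PDC3 was 16.4-fold the water mean in EtBr seedlings (log2 change 4.36 ± 0.84 SE, limma adjusted p = 0.00264) and 29.4-fold the doxycycline mean (log2 difference 4.78 ± 0.75 SE, limma adjusted p = 0.00195). These folds rest on 7 reads in all doxycycline libraries and 12 in all water libraries. The fold against water was 11 without water replicate 1 and 69.4 without water replicate 3, and that against doxycycline was 19.6 without doxycycline replicate 2 and 137 without doxycycline replicate 3. In doxycycline against water PDC3 did not pass (log2 change -0.42 ± 0.98 SE, limma adjusted p = 0.827, 95% interval -2.59 to 1.74).

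PDC4 had 25.5, 20.2 and 28.2 normalized counts in EtBr libraries, against 9.53, 4.08 and 14.2 in water libraries, which did not overlap. The log2 change was 1.45 ± 0.50 SE with a limma adjusted p of 0.0357. It passed at 0.0423 with edgeR, missed at 0.0689 in the authors' deposited table and with DESeq2, and missed at limma adjusted p values of 0.0643 to 0.118 when any EtBr replicate, or water replicate 1 or 2, was left out. In doxycycline libraries PDC4 had 13.9, 17.6 and 2.99, against 9.06, 3.85 and 13.6 in water libraries, which overlapped (log2 change 0.21 ± 0.68 SE, limma adjusted p = 0.884).

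ADH1 (AT1G77120, chr1:28975255-28977417, plus strand, 7 exons), which completes the ethanol branch, rose under both agents. It had 1766, 1828 and 1123 normalized counts in EtBr libraries, against 60.3, 41.8 and 55.6 in water libraries. It had 352, 321 and 329 in doxycycline libraries, against 57.3, 39.4 and 53.5 in water libraries. No group overlapped another, and EtBr replicate 3 was the lowest of the EtBr libraries. That library had the highest root and the lowest leaf marker sum of all libraries. PDC1, PDC3, ALDH2B7 and SUS4 were also lowest in it among EtBr libraries, whereas PDC2, PDC4, LDH, ALAAT1 and SUS1 were highest. The part of organ make-up in these values was not tested. The ADH1 mean was 29.9-fold the water mean in EtBr seedlings (log2 change 4.86 ± 0.24 SE, limma adjusted p = 5.13e-06), and 34.2-fold without EtBr replicate 3. It was 6.67-fold the water mean in doxycycline seedlings (2.73 ± 0.21, limma adjusted p = 2.31e-05). EtBr exceeded doxycycline 4.51-fold (log2 difference 2.14 ± 0.19 SE, limma adjusted p = 2.13e-04).

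ADH1 and PDC1, which is not the only gene for the step before ADH1, stood in different ratios in the 3 groups. Per length, ADH1 stood at 1.26, 1.33 and 0.955 times PDC1 in EtBr libraries, 0.318, 0.220 and 0.267 times in doxycycline libraries and 2.55, 4.74 and 1.65 times in water libraries. The 3 groups did not overlap in this ratio, which was lowest in doxycycline libraries. It leaves out PDC2, which gave 93.6% of per-length PDC reads in water, 65.7% in EtBr and 45.8% in doxycycline libraries. The water ratios also rest on only 31, 12 and 43 PDC1 reads. The ratio therefore describes these 2 genes and not the ethanol branch as a whole. ADH1 overlaps the neighbouring AT1G77122 on the opposite strand by 61 bases, and without stated strand use in counting, reads in that stretch cannot be assigned to 1 of the 2 genes.

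LDH (AT4G17260, chr4:9673897-9675540, plus strand, 2 exons), the lactate branch, rose under both agents and more under EtBr. It had 4693, 4862 and 4969 normalized counts in EtBr libraries, against 191, 168 and 239 in water libraries, and 543, 645 and 766 in doxycycline libraries, against 181, 159 and 229.8 in water libraries. No group overlapped another, and the EtBr libraries lay close together, between 4693 and 4969. The mean was 24.3-fold the water mean in EtBr seedlings (log2 change 4.61 ± 0.15 SE, limma adjusted p = 1.75e-06) and 3.43-fold in doxycycline seedlings (1.78 ± 0.18, limma adjusted p = 1.61e-04). EtBr stood 7.13-fold above doxycycline (log2 difference 2.84 ± 0.13 SE, limma adjusted p = 3.9e-05), the smallest adjusted p of the 10 genes in that comparison. Per length LDH was above ADH1 in all 9 libraries, at 2.92, 2.92 and 4.86 times in EtBr, 1.69, 2.21 and 2.55 times in doxycycline and 3.47, 4.42 and 4.71 times in water libraries.

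ALDH2B7 (AT1G23800, chr1:8412051-8414886, minus strand, 11 exons), a mitochondrial enzyme that oxidizes acetaldehyde to acetate, was the gene that fell. It had 80.9, 84.6 and 72.5 normalized counts in EtBr libraries, against 142, 189.8 and 186 in water libraries, without overlap. The EtBr mean was 0.46 of the water mean (log2 change -1.10 ± 0.21 SE, limma adjusted p = 0.00261). In doxycycline libraries it had 155, 88.8 and 106, against 135, 179 and 179 in water libraries, and these overlapped through doxycycline replicate 1. That difference did not pass (log2 change -0.52 ± 0.25 SE, limma adjusted p = 0.22, 95% interval -1.07 to 0.03). EtBr against doxycycline gave a log2 difference of -0.57 ± 0.25 SE (limma adjusted p = 0.0872, 95% interval -1.17 to 0.02), which edgeR called at an adjusted p of 0.0395. The gene overlaps AT1G23790 on the opposite strand by 29 bases.

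ALAAT1 (AT1G17290, chr1:5922332-5926400, plus strand, 14 exons) makes alanine from pyruvate. It had 10529, 10361 and 11706 normalized counts in EtBr libraries, against 4007, 4006 and 3387 in water libraries, and 5225, 5674 and 5492 in doxycycline libraries, against 3809, 3775 and 3261 in water libraries. No group overlapped another. The change was the smallest of the called rises in doxycycline seedlings, at 1.51-fold (log2 change 0.60 ± 0.11 SE, limma adjusted p = 0.00657), and was 2.86-fold in EtBr seedlings (1.52 ± 0.13, limma adjusted p = 5.06e-05). EtBr stood 1.91-fold above doxycycline (log2 difference 0.93 ± 0.10 SE, limma adjusted p = 4.44e-04). Without doxycycline replicate 1, 2 or 3 the call against water was lost (limma adjusted p of 0.0572 to 0.066).

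SUS1 (AT5G20830, chr5:7050217-7055398, minus strand, 14 exons, 13 of them coding) and SUS4 (AT3G43190, chr3:15179010-15184105, minus strand, 12 exons) are sucrose synthase genes identical at 84.3% of aligned coding bases with a longest identical run of 38 bases. SUS1 had 3878, 3862 and 4874 normalized counts in EtBr libraries, against 755, 406 and 486 in water libraries, and 1955, 1824 and 1551 in doxycycline libraries, against 717, 383 and 468 in water libraries. No group overlapped another. SUS1 rose 7.66-fold in EtBr seedlings (log2 change 2.98 ± 0.23 SE, limma adjusted p = 2.79e-05) and 3.40-fold in doxycycline seedlings (1.81 ± 0.20, limma adjusted p = 3.06e-04), and EtBr exceeded doxycycline 2.27-fold (log2 difference 1.179 ± 0.138 SE, limma adjusted p = 5.66e-04).

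SUS4 had 64.2, 85.5 and 42.3 normalized counts in EtBr libraries, against 5.29, 3.06 and 9.81 in water libraries, and 5.94, 5.86 and 3.99 in doxycycline libraries, against 5.03, 2.88 and 9.44 in water libraries. The EtBr libraries stood above all others, and the doxycycline libraries fell inside the range of the water libraries. SUS4 rose 10.6-fold in EtBr seedlings (log2 change 3.26 ± 0.49 SE, limma adjusted p = 6.88e-04) and did not pass in doxycycline seedlings (-0.01 ± 0.55, limma adjusted p = 0.995, 95% interval -1.23 to 1.20). EtBr stood 11.6-fold above doxycycline (log2 difference 3.28 ± 0.37 SE, limma adjusted p = 4.75e-04). SUS4 made up 2.05%, 2.72% and 1.08% of the per-length reads of the pair in EtBr libraries, 0.382%, 0.404% and 0.324% in doxycycline libraries and 0.878%, 0.943% and 2.49% in water libraries.

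**Figure D4:**
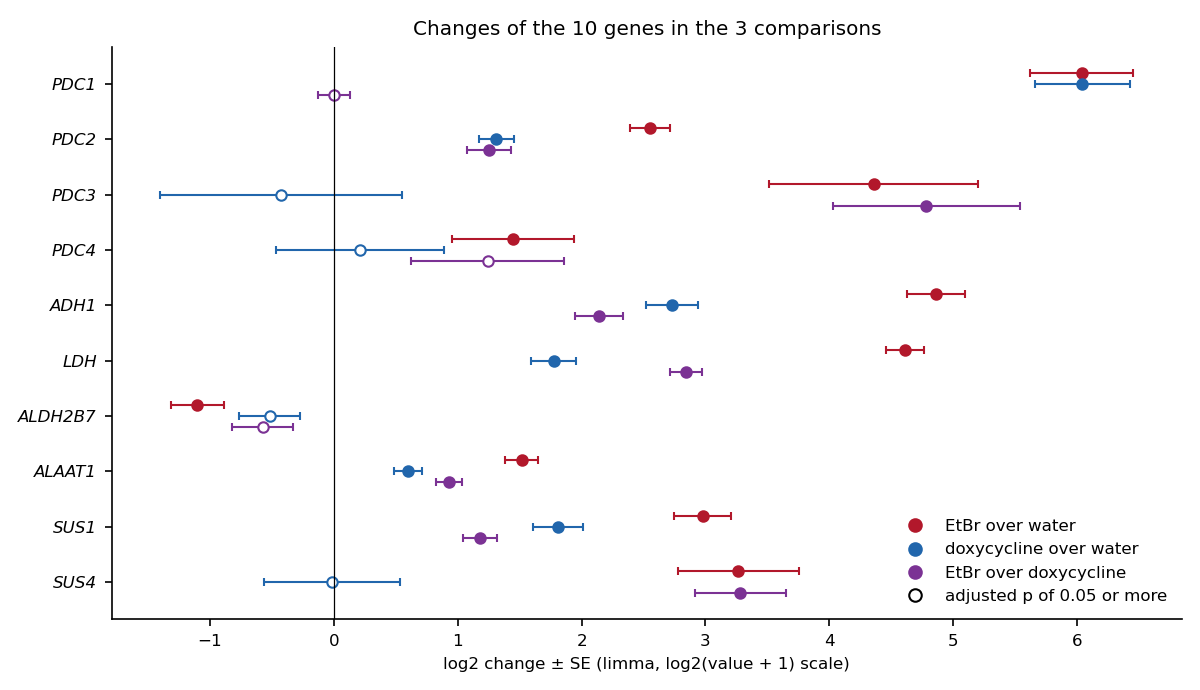
Log2 changes of the 10 genes (limma, log2(value + 1) scale) in EtBr over water, doxycycline over water and EtBr over doxycycline, with whiskers of 1 SE; open points have an adjusted p of 0.05 or more. PDC1 lies at 6.04 against water for both agents and at 0 between them, and ALDH2B7 lies below 0 in all 3 comparisons.

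Per kilobase of gene length, on the shared scale, ALAAT1 was the most abundant of the 10 transcripts in every group, at 4515 ± 302 in EtBr, 2369.6 ± 103 in doxycycline and 1553 ± 141 in water libraries (SD, n = 3 each). PDC1 held rank 6 of the 10 in EtBr libraries at 815 ± 76.0, rank 2 in doxycycline libraries at 819 ± 118 and rank 7 in water libraries at 13.5 ± 7.69. LDH held rank 2 in EtBr libraries at 3292 ± 93.4, rank 5 in doxycycline libraries at 462 ± 76.4 and rank 4 in water libraries at 133 ± 24.6. The lowest places in all 3 groups were held by PDC3, PDC4 and SUS4, none above 32.3 per kilobase in any group mean. Across the groups, 6 genes stood in the order water, doxycycline, EtBr from low to high: PDC2, PDC4, ADH1, LDH, ALAAT1 and SUS1. Of these, PDC4 did not pass the test between doxycycline and water, nor between EtBr and doxycycline (log2 difference 1.24 ± 0.62 SE, limma adjusted p = 0.128, 95% interval -0.24 to 2.72). The order was doxycycline, water, EtBr for PDC3 and SUS4, with doxycycline and water not differing beyond their spread.

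The genes whose log2 values over the 9 libraries were most like those of PDC1, among 17189 genes with a mean of at least 50, were PUX8 (Pearson r = 0.992), GAPC1 (0.990) and AT3G50400 (0.989). PUX8 encodes a UBX domain protein, GAPC1 a cytosolic glyceraldehyde-3-phosphate dehydrogenase and AT3G50400 a GDSL esterase/lipase. Those most like ADH1 were ALAAT2 (0.994), AT5G54550 (0.993) and AT1G53025 (0.991). The 9 libraries are 3 groups of 3, so these values describe mainly how the group means differ and carry no p. GAPC1 averaged 23577 normalized counts in EtBr, 21411 in doxycycline and 4632 in water libraries, and ALAAT2 averaged 5317 in EtBr, 1884 in doxycycline and 368 in water libraries.

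Genes of the neighbouring pathways were read from lists set by pathway membership. Their counts stand against the shares of all genes. In EtBr against water these were 34.2% higher and 21.2% lower, with a median log2 change of 0.39. That median was 0.09 among genes with a mean of at least 10. In doxycycline against water the shares were 6.47% and 5.27%, with a median of -0.01. In EtBr against doxycycline they were 32.4% and 24.8%, with a median of 0.14. Of 6 other sucrose-cleaving genes, 3 rose and 1 fell in EtBr against water. Their median log2 change was 0.24, below the 0.39 of all genes and above the 0.09 of genes with a mean of at least 10. In doxycycline against water 1 rose and 0 fell, with a median of 0.10. SUS3, another sucrose synthase gene, had 492, 378 and 349 normalized counts in EtBr libraries, against 177, 129 and 173 in water libraries (log2 change 1.34 ± 0.21 SE, limma adjusted p = 7.74e-04). It had 365, 351 and 307 in doxycycline libraries, against 168, 121 and 167 in water libraries (1.17 ± 0.18, limma adjusted p = 0.00224). CINV2, a cytosolic invertase gene, fell in EtBr seedlings to 109 ± 12.1, against 259.7 ± 21.5 in water seedlings (log2 change -1.24 ± 0.18 SE, limma adjusted p = 5.97e-04), and in doxycycline seedlings it had 172 ± 14.4, against 247 ± 23.0 in water seedlings, which did not pass (-0.52 ± 0.16, limma adjusted p = 0.0671). For doxycycline the lower count of 0 was 1 at an unadjusted limma p under 0.05, 1 with edgeR and 0 with DESeq2, and the higher count was 0 without doxycycline replicate 1 or 2.

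Glycolysis supplies pyruvate, and its genes moved in both directions. Of 28 cytosolic glycolysis genes, 17 rose and 6 fell in EtBr against water, with a median log2 change of 0.48. In doxycycline against water 7 rose and 2 fell, with a median of 0.17. AT5G56350, a pyruvate kinase gene, had 12439 ± 2694 in EtBr libraries, against 813 ± 111 in water libraries (log2 change 3.92 ± 0.18 SE, limma adjusted p = 4.42e-06). The aldolase gene FBA5 had 599 ± 9.49 in EtBr libraries, against 6896 ± 739 in water libraries (-3.52 ± 0.12, limma adjusted p = 1.84e-06). In doxycycline libraries GAPC1 had 20767 ± 1619, against 4536 ± 317 in water libraries (2.19 ± 0.13, limma adjusted p = 3.23e-06), and the phosphoglycerate mutase gene IPGAM2 had 7515 ± 1099, against 1869.6 ± 326 (2.01 ± 0.15, limma adjusted p = 2.1e-05). The doxycycline count of 7 was 3 without doxycycline replicate 1, 2 or 3 and 4 without water replicate 3, and the count of 2 was 0 in each of these fits and 1 without water replicate 1 or 2.

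The pyruvate dehydrogenase complex takes pyruvate into mitochondrial respiration. Of 8 genes of its subunits, 4 rose and 0 fell in EtBr against water, where 34.2% of all genes rose and 21.2% fell. Their median log2 change was 0.29, below the 0.39 of all genes and above the 0.09 of genes with a mean of at least 10. In doxycycline against water 1 rose and 0 fell, with a median of 0.06. IAR4, an E1 alpha subunit gene, had 3057 ± 155 in EtBr libraries, against 1163 ± 45.2 in water libraries (1.39 ± 0.11, limma adjusted p = 3.49e-05), and LTA3, an E2 subunit gene, had 1227 ± 68.3, against 852 ± 28.7 (0.52 ± 0.12, limma adjusted p = 0.00494). In doxycycline libraries LPD2, an E3 subunit gene, had 2124 ± 136, against 1579 ± 172 in water libraries (0.43 ± 0.12, limma adjusted p = 0.0371), a call lost when any of the 6 libraries was left out. LPD1 had 8765 ± 578 in doxycycline libraries, against 7815 ± 245 in water libraries (0.16 ± 0.12, limma adjusted p = 0.425). The lower counts of 0 were 0 at an unadjusted limma p under 0.05, with edgeR and with DESeq2 in both comparisons.

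Among the relatives of ADH1 and ALDH2B7, more genes fell than rose in EtBr seedlings. Of 11 such genes, 2 rose and 6 fell in EtBr against water, where 34.2% of all genes rose and 21.2% fell. The median log2 change of the 11 was -0.40. In doxycycline against water 0 rose and 3 fell, where 6.47% of all genes rose and 5.27% fell. The median of the 11 was -0.15 there. The ADH-like gene AT1G22430 had 528 ± 40.1 in EtBr libraries, against 1874 ± 326 in water libraries (-1.81 ± 0.15, limma adjusted p = 4.23e-05), and the ADH-like gene AT1G22440 had 35.9 ± 2.40, against 215 ± 71.5 (-2.49 ± 0.28, limma adjusted p = 1.68e-04). AT4G22110 had 1 read in the 3 doxycycline libraries, against 47 in the 3 water libraries (-3.69 ± 0.57, limma adjusted p = 0.00225). Scaled for sequencing depth, the ratio was 0.0204 with a 95% counting interval of 5.06e-04 to 0.119. That interval leaves out the spread between libraries. AT5G42250 had 152 ± 27.6 normalized counts in doxycycline libraries, against 288 ± 42.4 in water libraries (-0.92 ± 0.19, limma adjusted p = 0.0118). The EtBr count of 6 was 5 or 6 with a library left out, and the count of 2 was 1 without EtBr replicate 1 or water replicate 1 and 0 without EtBr replicate 2 or 3. The doxycycline count of 3 was 1 or 2 whichever library was left out. The doxycycline count of 0 higher was 0 at an unadjusted limma p under 0.05, with edgeR and with DESeq2.

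Beside ALAAT1 stand the other alanine aminotransferases and the enzymes of the GABA shunt. Of 9 such genes, 3 rose and 3 fell in EtBr against water, where 34.2% of all genes rose and 21.2% fell. Their median log2 change was 0.33, below the 0.39 of all genes and above the 0.09 of genes with a mean of at least 10. Of the 8 in the doxycycline table, 2 rose and 0 fell in doxycycline against water, with a median of 0.18. ALAAT2, the paralog of ALAAT1 with 85.3% identity over aligned coding bases, had 5756, 5415 and 4970.1 normalized counts in EtBr libraries, against 392, 371 and 372 in water libraries (3.82 ± 0.12, limma adjusted p = 1.52e-06). It had 1768, 1744 and 1969 in doxycycline libraries, against 372, 350.0 and 358 in water libraries (2.34 ± 0.11, limma adjusted p = 8.44e-07). GGT1, a peroxisomal glutamate:glyoxylate aminotransferase gene, had 18553 ± 990.2 in EtBr libraries, against 61944 ± 7449 in water libraries (-1.73 ± 0.17, limma adjusted p = 9.1e-05), and the glutamate decarboxylase gene GAD4 had 199 ± 51.6 in doxycycline libraries, against 98.4 ± 24.8 in water libraries (1.00 ± 0.26, limma adjusted p = 0.034). The doxycycline count of 2 was 1 whichever of the 6 libraries was left out. Its lower count of 0 was 1 at an unadjusted limma p under 0.05 and 0 with edgeR and DESeq2.

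Other genes known to accumulate in low oxygen were read beside these. Of 24 measured in the EtBr table, 18 rose and 3 fell against water, with a median log2 change of 1.89. Of 23 in the doxycycline table, 4 rose and 2 fell against water, with a median of 0.18, and EtBr against doxycycline gave 17 higher and 5 lower of 23, with a median of 1.47. HRE2, a group VII ethylene response factor gene, had 4087, 5766 and 4871 normalized counts in EtBr libraries, against 1.06, 3.06 and 2.18 in water libraries (10.67 ± 0.29, limma adjusted p = 1.04e-06), and 163, 116 and 148 in doxycycline libraries, against 1.01, 2.88 and 2.098 in water libraries (5.62 ± 0.41, limma adjusted p = 1.64e-05). The haemoglobin gene HB1 had 8024 ± 692 in EtBr libraries, against 233 ± 53.1 in water libraries (5.12 ± 0.18, limma adjusted p = 1.84e-06). HRU1, a universal stress protein gene, had 1819 ± 129.7 in doxycycline libraries, against 367 ± 62.7 in water libraries (2.32 ± 0.14, limma adjusted p = 4.05e-06). The doxycycline count of 4 was 2 or 3 whichever library was left out, and the count of 2 was 0 in each such fit other than that without water replicate 2.

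**Figure D5:**
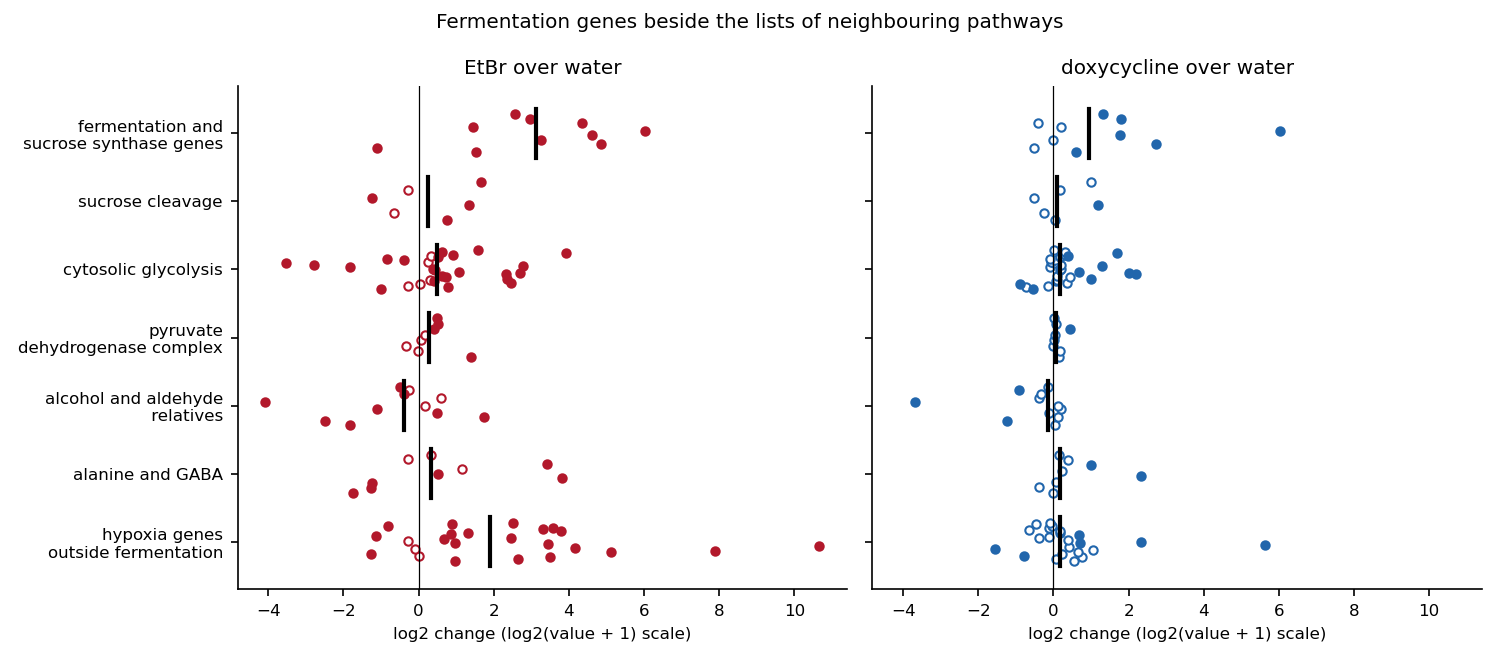
Log2 changes (log2(value + 1) scale) of every measured gene of the 10 fermentation and sucrose synthase genes and of 6 neighbouring lists, in EtBr over water (left) and doxycycline over water (right); filled points passed the test, open points did not, and black bars are medians. The 10 genes have medians of 3.12 and 0.95, and the low-oxygen genes outside fermentation 1.89 and 0.18.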

How the data were processed

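RNA-seq libraries of whole Arabidopsis seedlings were grouped by the treatment in the labels, with 3 libraries each for EtBr, doxycycline and water. The submitters' processing notes name DESeq 1.18.0, HTSeq 0.6.1, TopHat2 2.0.12, Bowtie2 2.2.3 and CASAVA 1.8, without roles. The build of the genome and the strand setting were not given in the sources used here. The deposited values are a signal, the authors' normalized counts per gene, in 1 table of 24434 genes (doxycycline and water) and 1 of 28956 (EtBr and water). The authors' log2 fold changes and p-values deposited beside them were used as an alternative.

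Every value was a whole multiple of 1 step per library, within 0.001 read for 100.0% of genes, which gave back whole reads. In 4 columns the step is close to 1 normalized count, which makes this check weak there. For the 24319 genes in both tables, the water reads were the same in 100.0%. EtBr and doxycycline were compared on these reads divided by median-ratio size factors of the 9 libraries. Replicates of a group differed beyond sampling noise, with chi-square over degrees of freedom of at least 8.62.

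Each comparison was fitted with limma 3.58.1 (R 4.3.3) on log2(value + 1) over all genes of the table, which can understate the change of low genes, with Benjamini-Hochberg adjustment and a threshold of 0.05. Alternatives were edgeR 4.0.16 and DESeq2 1.42.0 on the reads, pseudocounts of 0.1 and 5, a mean of at least 10, centring on library medians, all 9 libraries in 1 fit, a replicate block, the authors' adjusted p, and each library left out. From each pathway list the 2 genes with the smallest adjusted p in each comparison with water are named. The 10 genes and the lists were chosen with earlier results of these data known. Of 29071 identifiers, 28255 matched RefSeq (TAIR10.1). Coding identity was computed by global alignment with Biopython 1.88. At this depth 1 read is worth about 1 normalized count, so values below 10 carry large counting error.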

Additional observations from a re-analysis of the deposited data

How the results depend on the processing

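Over the alternatives run, no log2 change of the 10 genes reversed its direction among those called. The count of higher genes stayed at 9 or 8 in EtBr against water, 6 or 5 in doxycycline against water and 7 in EtBr against doxycycline. With 1 library left out it ranged from 8 to 9, from 5 to 6 and was 7. The 8s come from PDC4, which missed with DESeq2 (adjusted p = 0.0689), with the authors' adjusted p and with all 9 libraries in 1 fit (limma adjusted p = 0.0598), and in 5 of the 6 fits that left out a library, and the 5s from ALAAT1. The count of lower genes in EtBr against doxycycline was 1 with edgeR (ALDH2B7, adjusted p = 0.0395), against 0 with limma; the cause was not tested. With a library left out, 172 log2 changes kept their side of the threshold and 8 lost it. Under the other alternatives 233 kept it, 2 lost it and 1 gained it. With the replicate number as a block, the counts were 9 higher and 1 lower, 6 higher and 0 lower, and 7 higher and 0 lower, as without it. Deviations from the group means correlated at -0.147 to 0.210 between same-numbered libraries and at -0.197 to 0.231 between other-numbered ones. The numbers were therefore not taken to pair the libraries. Low counts limit PDC3, PDC4 and SUS4 in doxycycline and water libraries, where an interval wider than 2 on the log2 scale leaves sizeable changes undetected. Leaving out a library of a group leaves 2 there, fitted changes use log2(value + 1), and folds are ratios of mean normalized counts.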
